A study of Mus musculus with 6 samples.

Results

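Vitamin A handling in the intestine was followed through a named list of 10 genes of the pathway: Rbp2, Lrat, Bco1, Bco2, Isx, Rdh7, Dhrs3, Aldh1a1, Aldh1a2 and Aldh1a3. All 10 were found among the 38561 genes of the deposited count tables, and all 10 passed the filter on low counts. The study asked how loss of Rbm47, an RNA-binding protein, from the intestinal epithelium alters gene expression. Polyadenylated RNA of C57BL/6J small intestinal mucosa, from mice labelled as 8 to 12 weeks old, was sequenced as 3 pools of genotype Rbm47_IKO and 3 pools of genotype wt, each labelled as RNA from 3 mice of both sexes. The study's methods describe constitutive deletion by a Vil-Cre transgene, which is active in epithelial cells of the gut, floxed controls and jejunal tissue, so that the control animals named wt in the labels may carry the floxed allele without Cre. No treatment was given to either group as far as the labels say.

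Dietary vitamin A reaches the enterocyte as retinol, released from retinyl esters, or as carotenoids of plants. Inside the cell β-carotene is cleaved to retinal, retinal is reduced to retinol, retinol is carried by a binding protein, and most of it is esterified and leaves in chylomicrons. A small part of the retinal is oxidised instead to retinoic acid, the ligand of nuclear receptors, and in the gut retinoic acid also induces Isx, a homeobox repressor that holds back carotenoid uptake and cleavage.

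Transcript levels of Rbm47 itself went against the genotype labels. They were 603, 625 and 619.8 CPM in Rbm47_IKO pools 1, 2 and 3 and 459.8, 449.9 and 472 CPM in the controls (log2 fold change 0.42, SE 0.10, adjusted p = 0.0751 by edgeR), where CPM are counts scaled to a common library size by TMM, the trimmed mean of M values. SE is the standard error of the log2 fold change, and p-values are from the quasi-likelihood test of edgeR. The counts cover the whole gene, and the exons removed by Cre are not given in the sources used here. The pools are therefore called the libraries labelled Rbm47-IKO. Directions follow the labels. They held 31560320 to 38951830 counts, a range that includes those of the controls. Xist, which is transcribed from the inactive X chromosome of female cells, was at 40.3 to 258 CPM in all libraries labelled Rbm47-IKO, and at 1.09, 150.0 and 0.686 CPM in control pools 1, 2 and 3, so that control pools 1 and 3 held almost no Xist although both sexes were labelled. Summed over 4 Y-linked genes, levels were 139, 53.0 and 144 CPM in libraries labelled Rbm47-IKO 1, 2 and 3 and 215, 87.9 and 220.3 CPM in control pools 1, 2 and 3. Summed over 6 genes, smooth muscle markers ranged from 90.7 to 3302 CPM and were highest in labelled Rbm47-IKO pool 3 and control pool 2. Of all 16425 genes tested, 2.70% passed an adjusted p of 0.05 (Benjamini-Hochberg adjustment). Higher levels under that label made up 1.45% and lower ones 1.25%, with a median log2 fold change of -0.01.

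Bco2 was the only vitamin A gene that passed the test, and it fell. Bco1 and Lrat had lower levels in every library labelled Rbm47-IKO than in every control, and Isx and Aldh1a1 had higher ones, but none of these 4 passed. At an unadjusted p under 0.05, 2 of the 10 genes were higher and 3 lower, and DESeq2 called Aldh1a1 as higher and Bco1, Bco2 and Lrat as lower. Over all genes, 16.8% were under that unadjusted p, and DESeq2 called 7.83% of the genes to which it gave an adjusted p. Thus 1 of 10 genes was called, lower, against 2.70% of all genes in either direction, and the pools of the groups did not overlap for 5 of 10, against 23.3% of all genes tested. The log2 fold changes were positive for 5 genes and negative for 5, with a median of -0.02.

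**Figure D1:**
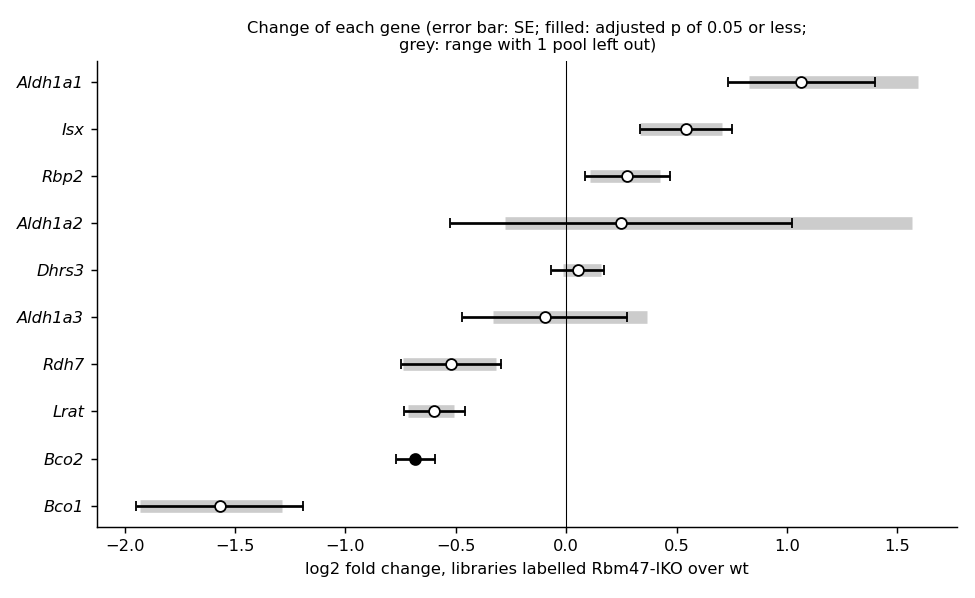
Log2 fold change of each gene between the libraries labelled Rbm47-IKO and the wt pools (point, with the standard error as the bar, n = 3 pools each; filled where the adjusted p by edgeR was 0.05 or less) over the range of values with 1 pool left out (grey). Bco2, at -0.68, is the only filled point and has the narrowest grey range, whereas the ranges of Aldh1a2, Aldh1a3 and Dhrs3 span 0.

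Among the carotenoid genes, Bco1 encodes the cytosolic enzyme that cleaves β-carotene centrally to retinal, Bco2 encodes a mitochondrial enzyme that cleaves carotenoids off centre, and Isx encodes the homeobox factor that represses Bco1. The stretch before the start site is shown for Bco1 and Bco2, which catalyse related reactions, and for Rbp2, the most abundant of the genes, because nuclear receptor and homeobox motifs could be looked for there. The sequences are from RefSeq on GRCm38.p6 and hold the 250 bases before the start, at chr8:117095615-117095864 (plus strand) for Bco1, chr9:50555139-50555388 (minus strand) for Bco2 and chr9:98490287-98490536 (plus strand) for Rbp2. Capitals mark matches to AGGTCA, the core of nuclear receptor sites, and to CATAAA, the core of Cdx sites, on either strand.
Bco1: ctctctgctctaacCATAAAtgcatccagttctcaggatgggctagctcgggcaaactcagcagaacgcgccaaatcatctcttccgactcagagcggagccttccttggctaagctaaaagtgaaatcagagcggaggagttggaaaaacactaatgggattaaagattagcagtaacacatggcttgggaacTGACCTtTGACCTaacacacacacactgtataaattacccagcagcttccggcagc
Bco2: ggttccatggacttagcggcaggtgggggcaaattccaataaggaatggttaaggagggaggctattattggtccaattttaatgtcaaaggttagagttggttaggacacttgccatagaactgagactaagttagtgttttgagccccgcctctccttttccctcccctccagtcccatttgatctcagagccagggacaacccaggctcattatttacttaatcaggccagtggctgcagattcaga
Rbp2: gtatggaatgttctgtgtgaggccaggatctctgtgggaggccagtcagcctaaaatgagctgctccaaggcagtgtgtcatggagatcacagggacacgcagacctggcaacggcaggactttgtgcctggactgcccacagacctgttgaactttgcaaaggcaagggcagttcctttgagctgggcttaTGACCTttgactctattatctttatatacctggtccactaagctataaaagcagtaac

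The Bco1 stretch held AGGTCA on the opposite strand 2 times, at positions -56 and -49 from the start, as a repeat with 1 base between. That arrangement occurred in 13 of 32851 promoter windows of 300 bases (0.04%), whereas AGGTCA alone occurred in 16.3% of them. Bco1 also held CATAAA at position -236, a motif in 11.9% of the windows. Rbp2 held 1 AGGTCA on the opposite strand, at -58, and the printed stretch of Bco2 held neither motif. Windows were found for 9 of the 10 genes, and where a gene had several, the one nearest its annotated start was taken. The homeobox core TAATTA or TAATTG, in 12.4% of all windows, was in none of the 9 windows, and the other 6 windows held none of these letters. Matches describe the letters of the window and not a bound site.

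Bco2 (ENSMUSG00000032066, chromosome 9, 50533087 to 50555181) was at 70.9, 72.4 and 72.9 CPM in libraries labelled Rbm47-IKO 1, 2 and 3. In control pools 1, 2 and 3 it was at 115.1, 115.7 and 116.3 CPM. The groups were far apart for their spread, and no pool stood out within either. This was a log2 fold change of -0.68 (SE 0.09, adjusted p = 0.0132 by edgeR), that is 1.61-fold more in controls. The coefficient of variation over pools was 1.48% under the Rbm47-IKO label and 0.512% in controls, below the 1.99% and 1.55% that counting alone gives on average at these depths. With 1 pool left out, values ranged from -0.69 to -0.67 on the log2 scale and the adjusted p by edgeR ranged from 0.025 to 0.111, with the threshold met in 2 of 6 fits. The threshold was missed without any 1 of the 3 libraries labelled Rbm47-IKO and without control pool 3. Over all genes 32, 0 and 119 passed without labelled Rbm47-IKO pool 1, 2 or 3, and 11 without control pool 3. With all 6 pools 443 passed, so that a missed threshold in those fits is not particular to Bco2. It was also missed with an offset for GC content (log2 fold change -0.67, adjusted p = 0.0536 by edgeR) and with the sum of 4 Y-linked genes as a covariate (-0.69, adjusted p = 0.0612 by edgeR), with the fold about as large, both added after the data were seen. The planned fit with the pool number as a replicate block missed it too (-0.68, adjusted p = 0.0612 by edgeR).

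Bco1 (ENSMUSG00000031845, chromosome 8, 117095854 to 117133720) was at 12.2, 12.3 and 14.5 CPM in libraries labelled Rbm47-IKO 1, 2 and 3 and at 47.0, 16.8 and 52.1 CPM in control pools 1, 2 and 3. All 3 libraries labelled Rbm47-IKO were below all controls, but control pool 2 lay much closer to them than to the other control pools. The mean change came to -1.57 on the log2 scale (SE 0.38, adjusted p = 0.0773 by edgeR). Without control pool 2 it was -1.93 (adjusted p = 0.00676 by edgeR), and the range over all pools left out was -1.93 to -1.29. Control pool 2 was the only control with Xist above 1.09 CPM and the control with the highest smooth muscle and fibroblast sums, and the part of either in its Bco1 level was not tested pool by pool. With the Y-linked genes or the smooth muscle sum as a covariate, the adjusted p by edgeR of Bco1 was 0.315 and 0.0574, and its log2 fold change -1.06 and -1.24. With no filter on low counts Bco1 passed (adjusted p = 0.0387 by edgeR). The gene Gm20694 overlaps Bco1 on the same strand and held 4 to 28 counts a pool, against 424 to 1899 for Bco1.

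Isx (ENSMUSG00000031621, chromosome 8, 74872719 to 74893506) was at 119.3, 121.5 and 104.4 CPM in libraries labelled Rbm47-IKO 1, 2 and 3 and at 95.8, 87.6 and 53.7 CPM in control pools 1, 2 and 3. The lowest library labelled Rbm47-IKO was above the highest control, and control pool 3 was the lowest of all. A log2 fold change of 0.54 (SE 0.21) did not pass (adjusted p = 0.243 by edgeR). It was 0.33 to 0.70 with 1 pool left out, the lowest value being that without control pool 3. Scarb1, the carotenoid uptake receptor that Isx also represses and which was chosen here after its values were seen, overlapped between the groups, with 2.95 to 5.61 CPM in libraries labelled Rbm47-IKO and 2.41 to 7.35 CPM in controls (log2 fold change -0.29, adjusted p = 0.825 by edgeR).

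The balance of these 3 genes was read per length, as RPKM, which is CPM per kilobase of gene length. The ratio of Isx to Bco1 was 11.0, 11.2 and 8.16 in libraries labelled Rbm47-IKO 1, 2 and 3 and 2.31, 5.90 and 1.17 in control pools 1, 2 and 3. The groups could not overlap here, since Isx was higher and Bco1 lower in every library labelled Rbm47-IKO than in every control. The separation of this ratio therefore adds nothing to the values of the single genes. Control pool 2 was again the nearest to the labelled Rbm47-IKO side. The ratio of Bco2 to Bco1 was 6.95, 7.07 and 6.04 in the former and 2.94, 8.27 and 2.68 in the latter, so that control pool 2 exceeded all other pools and the groups overlapped. These ratios are a description and were not tested.

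**Figure D2:**
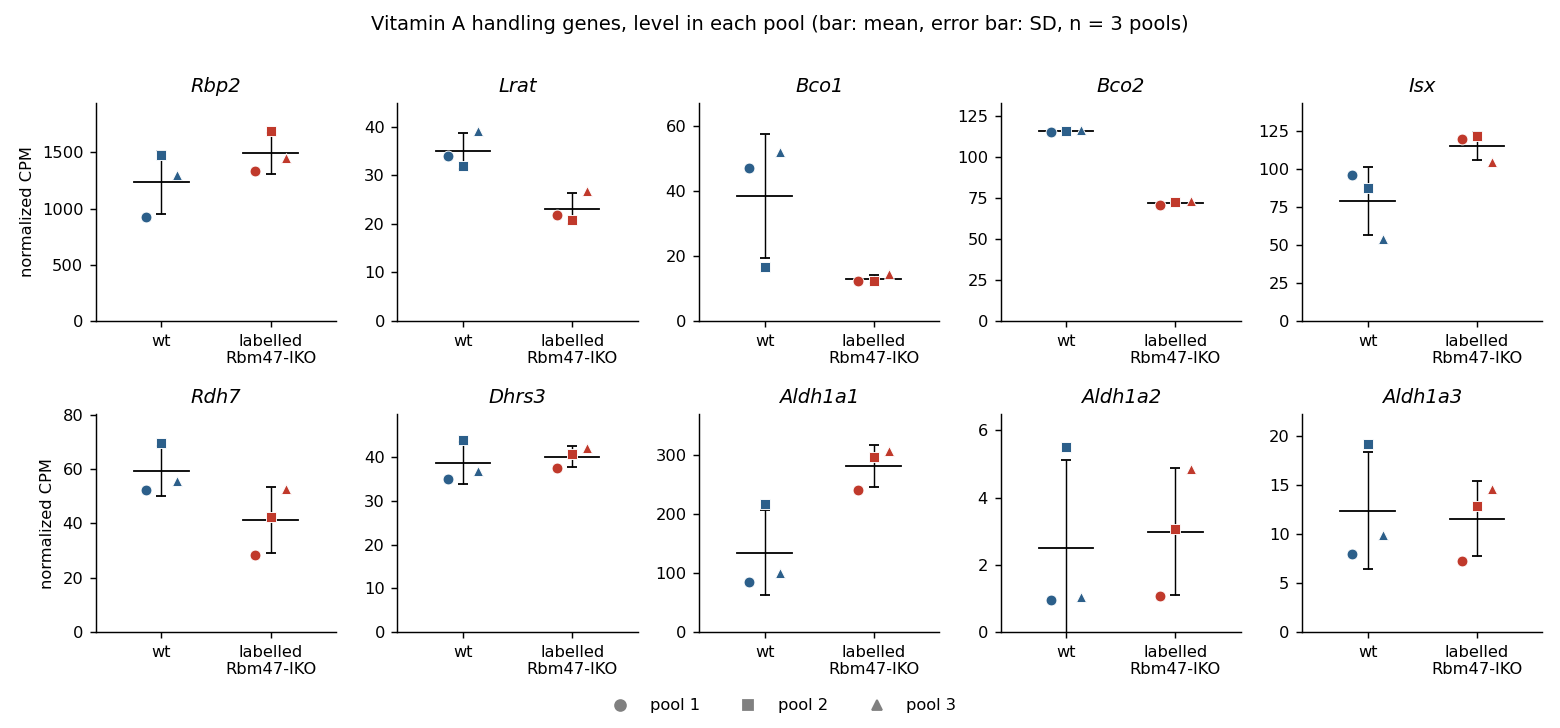
Normalized CPM of each gene (vertical axis, from 0) in the 3 wt pools (blue) and the 3 libraries labelled Rbm47-IKO (red), with the pool number as the marker, the mean as the line and the SD as the error bar (cut at 0). The Bco2 pools lie tightly at 70.9 to 72.9 against 115.1 to 116.3 CPM, and the square of control pool 2 lies apart from the other controls for Bco1 and Aldh1a1.

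Retinol binding and esterification were represented by Rbp2 and Lrat. Rbp2 (ENSMUSG00000032454, chromosome 9, 98490537 to 98509771) encodes the enterocyte retinol-binding protein that presents retinol for esterification. It was at 1333, 1694 and 1448 CPM in libraries labelled Rbm47-IKO 1, 2 and 3 and at 927, 1475 and 1295 CPM in control pools 1, 2 and 3. The groups overlapped, and only control pool 1 lay well below the rest. Its log2 fold change of 0.28 (SE 0.19) did not pass (adjusted p = 0.549 by edgeR), and it was 0.11 to 0.43 with 1 pool left out, lowest without control pool 1 and highest without control pool 2.

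Lrat (ENSMUSG00000028003, chromosome 3, 82892579 to 82903973) encodes the acyltransferase that turns retinol into retinyl esters. It was at 21.8, 20.8 and 26.8 CPM in libraries labelled Rbm47-IKO 1, 2 and 3 and at 34.1, 31.9 and 39.1 CPM in control pools 1, 2 and 3. The groups did not overlap, and the means differed by more than 3 times the SD of either group (23.2 ± 3.23, SD, n = 3 pools, against 35.0 ± 3.71, SD, n = 3 pools). The log2 fold change of -0.60 (SE 0.14) missed the threshold (adjusted p = 0.0708 by edgeR). It was between -0.72 and -0.51 with 1 pool left out, in none of which it passed. With the GC offset it was -0.49 (adjusted p = 0.19 by edgeR). With the Y-linked sum as a covariate it was -0.49 (adjusted p = 0.207 by edgeR), and with the smooth muscle sum -0.62 (adjusted p = 0.0533 by edgeR). Rbm46os, which overlaps Lrat on the opposite strand, held 0 to 2 counts a pool. Dgat1, an acyltransferase of triglyceride synthesis that can also esterify retinol, was at 1215 to 1261 CPM against 1003 to 1242 CPM in controls (log2 fold change 0.12, adjusted p = 0.725 by edgeR).

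The interconversion of retinol and retinal was represented by Rdh7, a short-chain dehydrogenase that oxidises retinol, and Dhrs3, which reduces retinal to retinol. Rdh7 (ENSMUSG00000040134, chromosome 10, 127884028 to 127888817) was at 28.5, 42.4 and 52.8 CPM in libraries labelled Rbm47-IKO 1, 2 and 3 and at 52.3, 69.5 and 55.7 CPM in control pools 1, 2 and 3. Labelled Rbm47-IKO pool 3 lay just above control pool 1, so that the groups overlapped. The difference was -0.52 on the log2 scale (SE 0.22, adjusted p = 0.299 by edgeR), and -0.74 to -0.32 with 1 pool left out, nearest to 0 without labelled Rbm47-IKO pool 1. Rdh7 lies in a cluster of close relatives on chromosome 10, and of its windows of 50 bases 9.57% occur also in Rdh1, 5.92% in Rdh19, 2.39% in Rdh9, 1.97% in Rdh16f2 and 1.5% in Rdh16, so that its reads could be split among them and its value is uncertain to that extent. Rdh1 and Rdh19 held at most 15 and 3 counts in any pool, and Rdh16f2 held 31 to 170.

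Dhrs3 (ENSMUSG00000066026, chromosome 4, 144892827 to 144928209) was at 37.4, 40.6 and 42.1 CPM in libraries labelled Rbm47-IKO 1, 2 and 3 and at 34.9, 44.0 and 36.9 CPM in control pools 1, 2 and 3. The groups overlapped with means of 40.1 ± 2.41 (SD, n = 3 pools) and 38.6 ± 4.76 (SD, n = 3 pools) CPM. Its log2 fold change was 0.05 (SE 0.12, adjusted p = 0.897 by edgeR).

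The Aldh1a genes encode the retinaldehyde dehydrogenases that make retinoic acid. Aldh1a1 (ENSMUSG00000053279, chromosome 19, 20601961 to 20643462) was at 240.4, 297 and 307 CPM in libraries labelled Rbm47-IKO 1, 2 and 3 and at 85.7, 217 and 100.6 CPM in control pools 1, 2 and 3. The groups did not overlap, and control pool 2 lay nearer to the libraries labelled Rbm47-IKO than to the other controls, as for Bco1 but on the high side. Labelled Rbm47-IKO pools exceeded controls by a log2 fold change of 1.07 (SE 0.33, adjusted p = 0.154 by edgeR), a 2.09-fold difference. Without control pool 2 it was 1.595 (adjusted p = 0.0124 by edgeR), with the smooth muscle sum as a covariate 0.95 (adjusted p = 0.0166 by edgeR), and with the Y-linked sum as a covariate 0.86 (adjusted p = 0.262 by edgeR). Its neighbour and close relative Aldh1a7, which shares 3.06% of the 50-base windows of Aldh1a1, was at 15.9 to 19.4 CPM in libraries labelled Rbm47-IKO and 13.8 to 22.8 CPM in controls (log2 fold change -0.04, adjusted p = 0.958 by edgeR).

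Aldh1a2 (ENSMUSG00000013584, chromosome 9, 71215789 to 71296243), the retinaldehyde dehydrogenase of mucosal dendritic cells and of stroma, was low throughout. It was at 1.07, 3.06 and 4.84 CPM in libraries labelled Rbm47-IKO 1, 2 and 3 and at 0.971, 5.51 and 1.04 CPM in control pools 1, 2 and 3. The groups overlapped fully, and each held a pool about as low as the lowest of the other. A log2 fold change of 0.25 (SE 0.78, adjusted p = 0.929 by edgeR) resulted, and it ranged from -0.28 to 1.57 with 1 pool left out.

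Aldh1a3 (ENSMUSG00000015134, chromosome 7, 66390892 to 66427517), another gene of the family, was at 7.28, 12.9 and 14.6 CPM in libraries labelled Rbm47-IKO 1, 2 and 3 and at 8.03, 19.2 and 9.96 CPM in control pools 1, 2 and 3. The highest and the second lowest values were both of controls. Between the group means the log2 fold change was -0.10 (SE 0.37, adjusted p = 0.942 by edgeR).

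The highest pools for Aldh1a2 and Aldh1a3 were those with high stromal markers. Control pool 2 and labelled Rbm47-IKO pool 3 had the highest level of both genes, and they also had the highest sums of 6 fibroblast markers (394 and 333 CPM, against 81.7 to 222 CPM in the other pools) and of 6 smooth muscle markers (2803 and 3302 CPM, against 90.7 to 586 CPM). The sum of 6 dendritic cell markers stayed between 18.7 and 22.5 CPM in all pools. No gene of these 3 lists passed the test between the groups or had an unadjusted edgeR p under 0.05, and DESeq2 called 0 of them. Over all genes these shares were 2.70%, 16.8% and 7.83%. In bulk RNA, fewer cells of a type and less RNA per cell cannot be told apart, and the part of stromal content in these levels was not tested beyond the fit with the muscle sum.

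**Figure D3:**
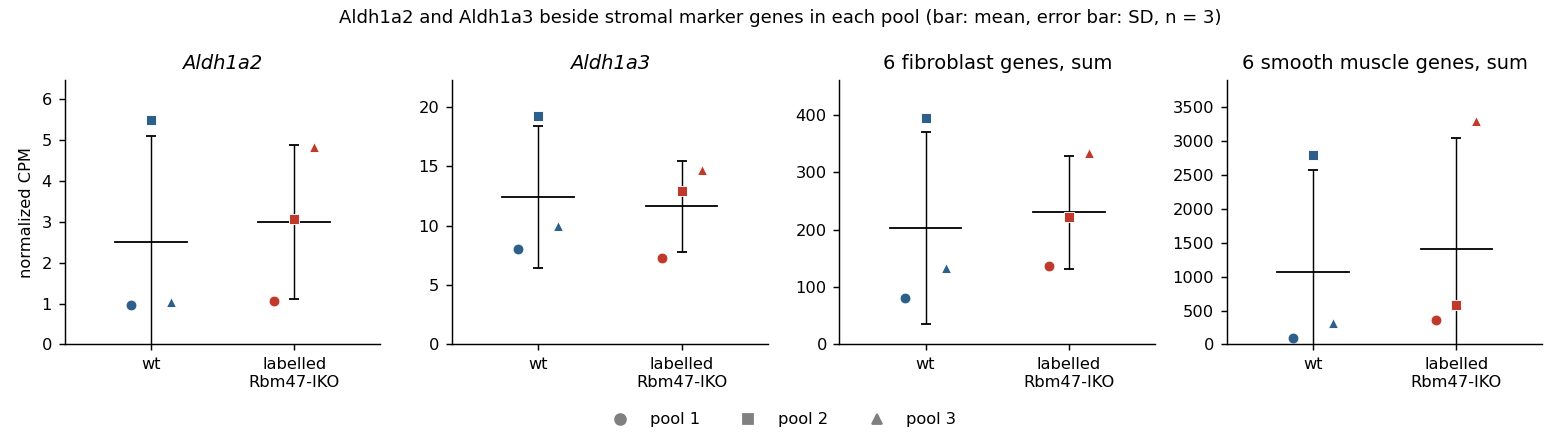
Normalized CPM (vertical axis, from 0) of Aldh1a2, Aldh1a3 and the summed fibroblast and smooth muscle markers in the 3 wt pools (blue) and the 3 libraries labelled Rbm47-IKO (red), with the mean as the line and the SD as the error bar (cut at 0). Control pool 2 (square) and labelled Rbm47-IKO pool 3 (triangle) are the highest 2 pools in all 4 panels.

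Levels of different genes were compared per length, as RPKM from the TMM-scaled CPM. In controls Rbp2 led with 1833 ± 416 RPKM (SD, n = 3 pools), followed by Aldh1a1 at 65.4 ± 34.9 and Bco2 at 54.6 ± 0.280. Rdh7 (35.3 ± 5.45) and Isx (35.2 ± 9.93) came next, then Bco1 (15.2 ± 7.504), Dhrs3 (13.2 ± 1.63), Lrat (6.55 ± 0.693), Aldh1a3 (2.69 ± 1.30) and Aldh1a2 (1.11 ± 1.15). Among neighbours in this order, the pools of Aldh1a1 and Bco2, of Rdh7 and Isx, of Bco1 and Dhrs3, and of Aldh1a3 and Aldh1a2 overlapped, so that the order within these pairs was not resolved.

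In the libraries labelled Rbm47-IKO the order of RPKM levels of Isx and Bco2 was the opposite of that in controls, and the pools of these genes did not overlap in either group. Isx (51.2 ± 4.14, SD, n = 3 pools) stood above Bco2 (34.0 ± 0.504) and Rdh7 (24.6 ± 7.29). Dhrs3 (13.7 ± 0.822) stood above Bco1 (5.12 ± 0.502), an order that was not resolved in controls, and the Bco1 pools overlapped those of Lrat (4.33 ± 0.604). Rbp2 (2220 ± 274) and Aldh1a1 (137 ± 17.4) again led, and Aldh1a3 (2.51 ± 0.833) and Aldh1a2 (1.32 ± 0.833) were again last. Of the summed RPKM of the 3 Aldh1a genes, Aldh1a1 made up 96.6% to 98.3% in the libraries labelled Rbm47-IKO and 94.1% to 95.1% in controls.

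**Figure D4:**
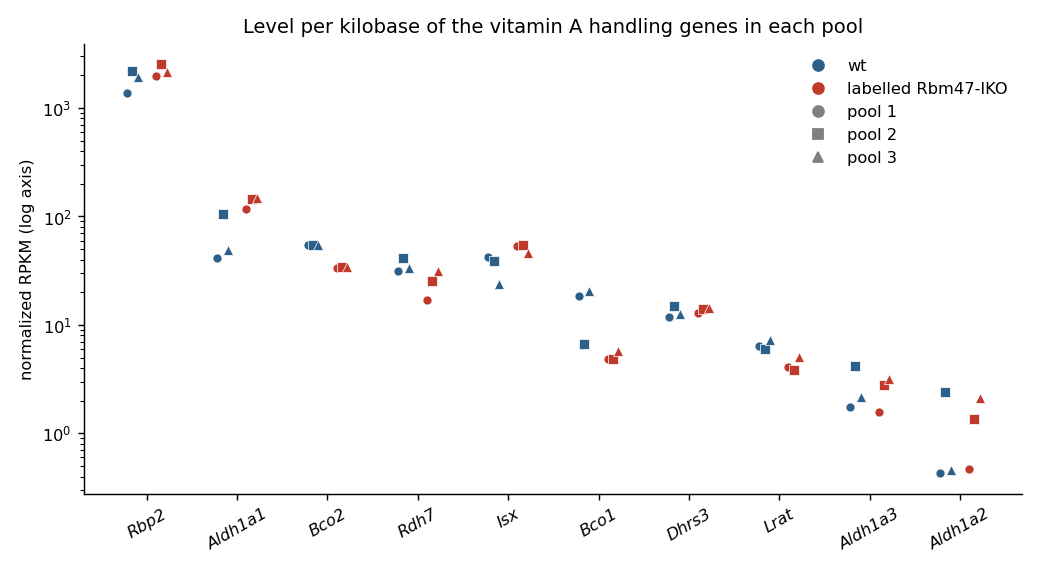
Normalized RPKM on a log axis of the 10 genes, ordered by their mean in the 3 wt pools (blue), beside the 3 libraries labelled Rbm47-IKO (red). Levels run from 1833 RPKM for Rbp2 to 1.11 RPKM for Aldh1a2 in controls, and the red points of Bco1 and Bco2 lie below the blue ones whereas those of Aldh1a1 and Isx lie above.

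The wider retinoid pathway was represented by 44 other genes, of which 36 were tested and 8 did not pass the filter on low counts. They were chosen with earlier results of these data known, so that the shares below are a description and not a test. None passed as higher and 4 passed as lower (11.1% of the tested, against 2.70% of all genes), with a median log2 fold change of -0.17 against -0.01 over all genes. At an unadjusted p under 0.05, 3 of the 36 were higher and 8 lower, against 16.8% of all genes in either direction. DESeq2 called 0 as higher and 5 as lower, against 7.83% of all genes in either direction, and limma-voom 0 and 4. The pools did not overlap for 11 of 36, against 23.3% of all genes tested.

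Of 14 tested retinol and retinal oxidoreductases, Rdh9, Rdh10 and Rdh16 fell and none rose. That is 21.4% of the list, against 2.70% of all genes called in either direction. The list was chosen with earlier results of these data known, so that its shares are not a test of it. Fold changes were negative for 12 of 14, against 50.7% of all genes, with a median log2 fold change of -0.45. Rdh10, the dehydrogenase that makes most embryonic retinal from retinol, was at 19.4, 18.9 and 19.0 CPM in libraries labelled Rbm47-IKO 1, 2 and 3 and at 28.3, 33.3 and 36.7 CPM in control pools 1, 2 and 3 (log2 fold change -0.78, SE 0.12, adjusted p = 0.0245 by edgeR). The groups were apart, and the spread lay in the controls. Rdh9 was at 71.9, 73.7 and 69.4 CPM against 133, 106.3 and 129.5 CPM (log2 fold change -0.78, SE 0.12, adjusted p = 0.0191 by edgeR). Rdh16 was at 6.15, 4.96 and 3.28 CPM against 12.3, 13.8 and 19.0 CPM (log2 fold change -1.65, SE 0.27, adjusted p = 0.0274 by edgeR). Rdh9 and Rdh16 are relatives of Rdh7 in the same cluster, and 10.95% of the 50-base windows of Rdh9 occur also in Rdh16, so that these 2 calls share sequence. A further gene of the cluster, Rdh16f2, had a log2 fold change of -1.13 and did not pass (adjusted p = 0.262 by edgeR), but was -1.43 and passed with the smooth muscle sum as a covariate (adjusted p = 0.0496 by edgeR). With 1 pool left out, Rdh9, Rdh10 and Rdh16 each passed in 2 of 6 fits, those without control pool 1 or 2. In the other fits few genes of any kind passed, as given for Bco2. With the Y-linked sum as a covariate none of the 3 passed (log2 fold changes -0.72, -0.78 and -1.62, adjusted p = 0.098, 0.102 and 0.119 by edgeR), and with the GC offset Rdh9 and Rdh10 did not (-0.79 and -0.76, adjusted p = 0.0623 and 0.0594 by edgeR). None of the 3 passed with the planned replicate block either (-0.77, -0.77 and -1.66, adjusted p = 0.0712, 0.071 and 0.0877 by edgeR). The folds thus moved little in the fits with the Y-linked sum, the GC offset or the replicate block. With 1 pool left out they ranged from -0.87 to -0.72 for Rdh9, -0.87 to -0.69 for Rdh10 and -1.87 to -1.43 for Rdh16. Rdh9 overlaps Rdh1, with 4 to 15 counts a pool, and Rdh16 overlaps Rdh18-ps, with 0 to 12.

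In the list of retinoid binding and uptake, Cd36 was the 1 call among 8 tested genes. That is 12.5% of the list, which was also chosen with earlier results known, against 2.70% of all genes called in either direction. Cd36, a scavenger receptor of long-chain fatty acids and carotenoids, fell from 108.1, 126.4 and 158 CPM in control pools 1, 2 and 3 to 49.7, 36.5 and 45.8 CPM in libraries labelled Rbm47-IKO 1, 2 and 3. Every library labelled Rbm47-IKO was below every control. The log2 fold change was -1.57 (SE 0.18, adjusted p = 0.0095 by edgeR), and with 1 pool left out Cd36 passed in 3 of 6 fits, with values from -1.70 to -1.41, and missed the threshold without labelled Rbm47-IKO pool 1 or 2 or control pool 3. Cd36 passed in all 10 other alternatives. Plb1, a brush-border phospholipase that also hydrolyses retinyl esters, was at 1275, 1182 and 1248 CPM in libraries labelled Rbm47-IKO 1, 2 and 3 and at 1091, 246.7 and 469 CPM in control pools 1, 2 and 3. The groups did not overlap, but the controls differed among themselves more than their mean differed from the others (log2 fold change 1.04, adjusted p = 0.316 by edgeR). Without control pool 1 its log2 fold change was 1.78 and it passed (adjusted p = 0.0355 by edgeR), as it did with the smooth muscle sum as a covariate (1.61, adjusted p = 0.0236 by edgeR), whereas without control pool 2 the value was 0.67.

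Genes of retinoic acid breakdown, reception and response did not pass the test with all 6 pools. Cyp26b1, which breaks retinoic acid down and whose group of 3 genes had 1 tested, was at 2.60 to 3.49 CPM in libraries labelled Rbm47-IKO and 0.714 to 2.32 CPM in controls (log2 fold change 1.11, adjusted p = 0.256 by edgeR). Without control pool 2, which had the highest of the control values, it was 1.74 and passed (adjusted p = 0.0463 by edgeR). Among the 5 tested receptors, the retinoic acid receptor Rarg was at 4.16 to 5.94 CPM against 2.31 to 4.01 CPM. Its log2 fold change was 0.75 (adjusted p = 0.231 by edgeR), and that of Rarb was -0.27 (adjusted p = 0.720 by edgeR). Of the 5 receptors, 2 had positive and 3 negative fold changes, and 3 had groups that did not overlap, against 23.3% of all genes tested. At an unadjusted edgeR p under 0.05, 2 were higher and 0 lower, against 16.8% of all genes in either direction. Of the 5 retinoic acid responsive genes tested, the largest fold changes were those of Rarres1, at 0.158 to 1.13 CPM over the 6 pools (log2 fold change -0.57, adjusted p = 0.813 by edgeR), and of Ccr9, a gut homing receptor of lymphocytes that retinoic acid induces (log2 fold change -0.56, adjusted p = 0.347 by edgeR).

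**Figure D5:**
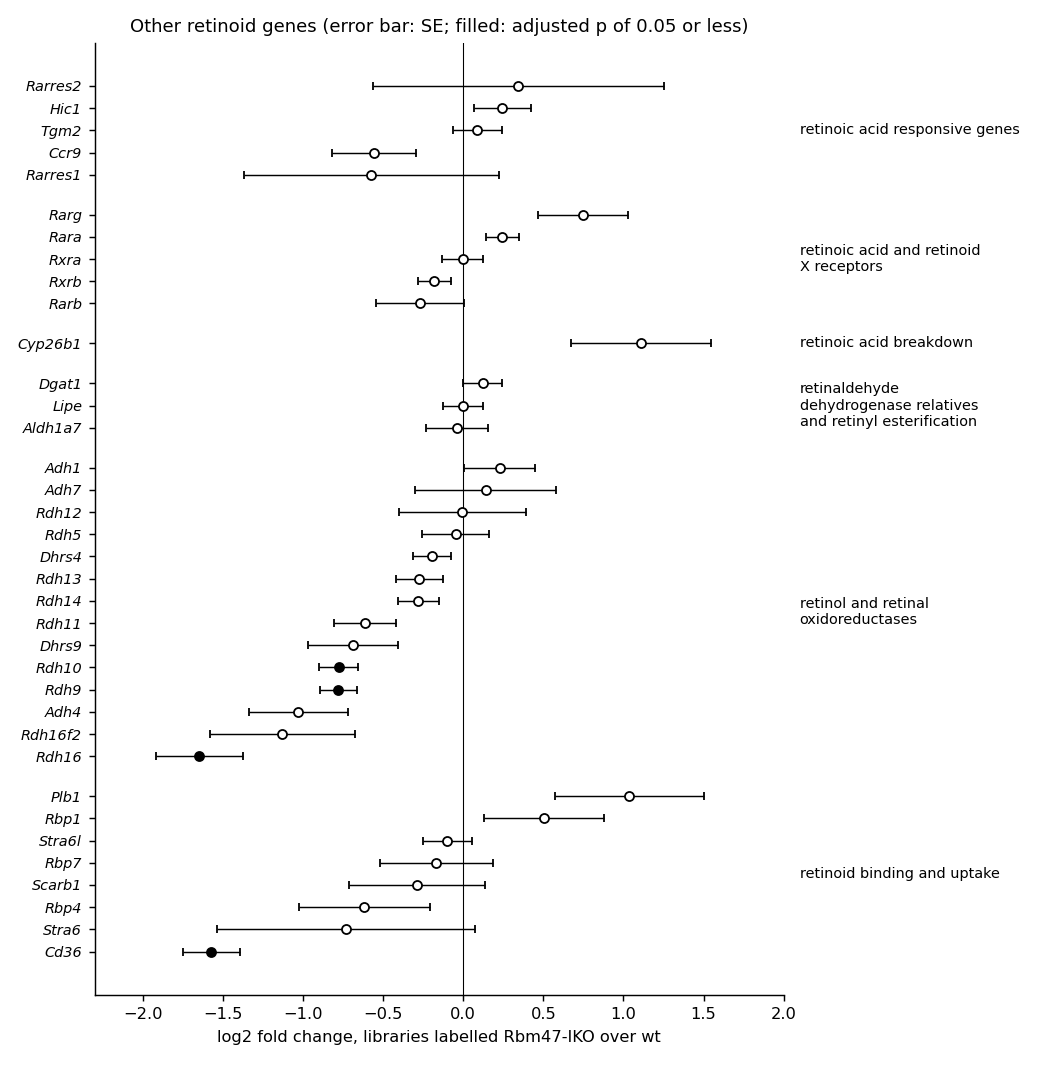
Log2 fold change between the libraries labelled Rbm47-IKO and wt pools (horizontal axis, with the standard error as the bar, n = 3 pools each) of the 36 tested retinoid genes outside the 10 above, by group; filled points passed an adjusted p of 0.05. The 4 filled points, Cd36, Rdh9, Rdh10 and Rdh16, all lie to the left of 0, and so do 12 of 14 oxidoreductases.

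The tissue label was checked against markers. Summed over 7 genes, enterocyte markers were at 35340, 38740 and 34780 CPM in libraries labelled Rbm47-IKO 1, 2 and 3 and at 39290, 41020 and 40840 CPM in control pools 1, 2 and 3. Every library labelled Rbm47-IKO was below every control in this sum, and its part in the values above was not tested. Those of the proximal small intestine were at 5147 to 6422 CPM in libraries labelled Rbm47-IKO and 4520 to 6037 CPM in controls, those of the distal small intestine at 457 to 618 CPM and 311 to 439.5 CPM. The 5 colon markers summed to 28.1 to 30.2 CPM in libraries labelled Rbm47-IKO and 15.9 to 38.9 CPM in controls. Car1 and Hoxd13 of that list had no count in any pool, and the 2 that could be tested had positive fold changes with a median of 1.88 on the log2 scale. The distal sum was thus higher in every library labelled Rbm47-IKO than in every control, and its part in the values above was not tested. The pools were apart for 2 of the 5 distal genes, against 23.3% of all genes tested. Fold changes were positive for 4 of them and negative for 1, whereas 50.7% of all genes had negative ones. B and plasma cell markers summed to 55.3 to 109.3 CPM in libraries labelled Rbm47-IKO and 91.9 to 147.5 CPM in controls. All 5 of these genes had negative fold changes, with a median of -0.68 on the log2 scale. Their pools were apart for 2 of 5, against the 23.3% of all genes, and their part in the values above was not tested. No gene of any of the 8 marker lists passed the edgeR test, which 2.70% of all genes did. At an unadjusted p under 0.05, 1 of 7 enterocyte markers was higher and 2 lower, and 1 of 5 proximal markers was higher and 1 lower. At the same p, 3 of 5 distal markers and 1 of 2 tested colon markers were higher, against 16.8% of all genes in either direction. DESeq2 called 1 enterocyte marker higher and 1 lower, 1 proximal marker lower, and 2 distal markers and 1 colon marker higher. Of all genes to which it gave an adjusted p, DESeq2 called 7.83% in either direction.

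Log2 fold change rose with the GC content of the transcript over all genes (Spearman's rho 0.271 over 16221 genes, a description across genes and not over replicates). The transcripts of Lrat (42.0% GC), Aldh1a1 (46.1%), Bco2 (47.1%) and Cd36 (38.4%) lie below the median of 49.8%, whereas Bco1 (49.8%) lies at it. With the offset for GC content Bco2, Rdh9 and Rdh10 missed the threshold at log2 fold changes of -0.67, -0.79 and -0.76, against -0.68, -0.78 and -0.78 without it. Cd36 and Rdh16 still passed with it, at -1.40 and -1.58, against -1.57 and -1.65 without it. Lrat was at -0.49 with it (adjusted p = 0.19 by edgeR), against -0.60. Aldh1a1 was at 1.11 and Bco1 at -1.62 with it, against 1.07 and -1.57.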

How the data were processed

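Reads on 38561 Ensembl genes were counted by the authors in each of 6 pools, with STAR 2.5.1a, Subread featureCounts 1.4.6-p5 and GRCm38 named in the submitters' processing notes. Whether counting used strand is not given in the sources used here. The deposited counts were not normalized. The deposited CPM and RPKM columns, which the authors scaled from these counts, were recomputed (tolerance 0.0001) and not used further. Symbols came from GENCODE M21 and matched 36639 genes. The unmatched genes held 0.369% of the counts.

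Counts were tested with edgeR 4.0.16 (filterByExpr, TMM, quasi-likelihood test, Benjamini-Hochberg adjustment over 16425 genes, threshold 0.05) in R 4.3.3. Standard errors are the log2 fold change over the root of F. Alternatives used DESeq2 1.42.0, limma-voom 3.58.1, other scalings and filters, a replicate block, a smooth muscle covariate and each pool left out. A GC offset and a Y-linked covariate were added after the data were seen.

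The members and lists were chosen with earlier results of these data known. Named were the 10 members, Rbm47, every other listed retinoid gene that passed, the 2 largest fold changes of each list and close relatives of members. Totals of 31560320 to 38951830 counts put the smallest level told from none (3 counts) at 0.077 to 0.0951 CPM per pool, which covers counting error only. Promoter windows came from RefSeq (GRCm38.p6). No 2 pools held identical counts, and none was left out.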

Additional observations from a re-analysis of the deposited data

How the results depend on the processing

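Over all genes, 443 were called. The count was 1131 with DESeq2, 711 with the smooth muscle covariate, 209 with the GC offset, 59 with the Y-linked covariate and 100 with the replicate block, and 0 to 431 with 1 pool left out (0 without labelled Rbm47-IKO pool 2, with 1729 genes at an unadjusted edgeR p under 0.05). Of the 10 vitamin A genes, 1 was called. DESeq2 called 4, the fit with no filter 2, the smooth muscle covariate 2, the replicate block, GC offset and Y-linked covariate 0 each, and the fits with 1 pool left out 0 to 3. Of the other retinoid genes, 4 were called, against 6 with the smooth muscle covariate, 5 with DESeq2, 1 with the replicate block, 2 with the GC offset, 1 with the Y-linked covariate and 0 to 5 with 1 pool left out. In the paired fit with the replicate block Bco2 stayed at -0.68 on the log2 scale (adjusted p = 0.0612 by edgeR), and Rdh9, Rdh10 and Rdh16 did not pass at nearly the same folds (-0.77, -0.77 and -1.66, adjusted p = 0.0712, 0.071 and 0.0877 by edgeR). Deviations of same-numbered pools from their group means correlated at 0.41, -0.0026 and -0.28, so that the pools share only a number.

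Directions changed for genes with small or variable fold changes. Aldh1a2 was at -0.0092 with the smooth muscle covariate and at -0.28 to 1.57 with 1 pool left out. Dhrs3 was at -0.00497 with the smooth muscle covariate, -0.0038 with the GC offset, -0.016 with the Y-linked covariate and -0.0136 to 0.159 with 1 pool left out. Dgat1 was at -0.018 and Aldh1a7 at 0.0056 with the GC offset. With 1 pool left out, the ranges were -0.33 to 0.37 for Aldh1a3, -0.19 to 0.18 for Aldh1a7, -1.64 to 0.34 for Rarres1 and -0.64 to 0.0136 for Scarb1. Over 24 named genes and 16 settings, 326 values kept direction and side of the threshold, 30 lost a call, 11 gained one and 16 changed direction. The causes were not tested. Aldh1a2, the lowest of the 10 genes, had 33 to 209 counts a pool, and its coefficient of variation over pools (63.1% under the Rbm47-IKO label and 104% in controls) exceeded the 9.82% and 10.3% that counting alone gives at this depth.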
